A study of Homo sapiens with 2 samples.

Results

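A set of 10 genes of the integrated stress response were examined in U937 cells, a human acute myeloid leukemia cell line with monocytic features. They are the transcription factor genes ATF4, ATF5, ATF3, DDIT3 (which encodes CHOP), CEBPB and CEBPG, and the genes TRIB3, CHAC1, SESN2 and DDIT4, which these factors are known to induce. Of the 10 genes, 9 had a row of the array table annotated with their symbol alone, out of 22465 genes with such a row. ATF5 shared its row with the symbol of a microRNA gene and was not analysed here. The set was chosen by gene role after the log2 ratios of DDIT3 and TRIB3 had been seen to be high on these arrays, so all ratios of the set are given as descriptions, with no test.

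The control cells carried an empty pCDH1-based lentiviral vector and the other cells the same vector with TWIST-1 cDNA, and each population was measured on 1 Affymetrix Human Transcriptome Array 2.0. The study's transduction methods give a sort for GFP after transduction, its array methods do not repeat this for the arrayed cells, and neither population is described as a clone. There is no replicate error, so TWIST-1 as the source of a difference and any unrelated difference of the cultures or arrays cannot be told apart. The log2 ratio is the deposited log2 value of the TWIST-1 array minus that of the vector array, and the threshold of 1.2-fold used in the study is a log2 ratio of 0.26. Log2 values of different genes come from different probes. They were compared between genes only to group genes by level and to find the gene nearest to a member.

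In the integrated stress response, a small group of kinases senses amino acid shortage, heme shortage, viral RNA or misfolded protein in the endoplasmic reticulum and phosphorylates the translation initiation factor eIF2alpha. General protein synthesis then slows, while the mRNA of ATF4 is translated more. ATF4 pairs with C/EBP family proteins on composite sites called C/EBP-ATF response elements and induces genes of amino acid supply, together with CHOP and TRIB3. ATF4 is controlled largely through its translation, which an array of RNA levels does not measure.

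DDIT3 and TRIB3 had the highest log2 ratios of the set. DDIT3 was 1.68-fold and TRIB3 1.30-fold higher, and these 2 of the 9 measured genes were past 1.2-fold on the TWIST-1 array. No member was 1.2-fold lower. Of all genes, 2.71% were at least 1.2-fold higher and 2.85% at least 1.2-fold lower, and among the 11233 genes at or above the median level 1.66% were higher. Since DDIT3 and TRIB3 were selected on these ratios, the count of 2 is not read against those shares. The median log2 ratio of the 9 genes was 0.19, beside 0.04 for all genes, and 8 of the 9 lay above that gene median.

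The DNA before the start sites of these genes is given first, because several members are known targets of ATF4 and CHOP. The window searched was the 250 bases before each start site given with the RefSeq sequences used (GRCh38.p14). There were 19 windows for the 10 members and 35116 windows in all. The core of the C/EBP-ATF response element, TGATGNAA on either strand, was found for 3 of the 10 members, CHAC1, CEBPG and ATF3, and for 3.89% of the 27305 genes with a window. Counted by window, 3 of 19 held it, beside 3.14% of all windows. The 3 genes with this core had log2 ratios of 0.16, 0.11 and 0.21, and neither DDIT3 nor TRIB3 held it in the windows searched. All TRIB3 windows lay inside its annotated gene, so the DNA before the first base of that gene was not searched. The CHAC1 and ATF3 stretches lie outside the annotated gene, and the CEBPG stretch lies before the second of its start sites and inside the gene. The capitals mark the core, which reads on the opposite strand in CHAC1.
CHAC1, chr15:40953221-40953470, plus strand: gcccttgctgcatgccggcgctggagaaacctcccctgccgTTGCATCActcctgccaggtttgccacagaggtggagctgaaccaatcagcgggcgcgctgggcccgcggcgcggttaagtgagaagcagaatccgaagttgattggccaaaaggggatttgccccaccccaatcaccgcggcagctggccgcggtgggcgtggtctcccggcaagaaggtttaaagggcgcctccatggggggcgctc
ATF3, chr1:212565190-212565249, plus strand: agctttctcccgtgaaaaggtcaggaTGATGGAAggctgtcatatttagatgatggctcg
CEBPG, chr19:33374063-33374086, plus strand: gcggcgtcTGATGCAAcctgccgg

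The DDIT3 stretch is shown because this gene had the highest ratio of the set, and it stops before the neighbouring gene MBD6. It held CCAAT, the first part of the endoplasmic reticulum stress element, once on each strand, at 97 and 73 bases before the start site. After the copy at 97 and the bases gccggcgtg, the stretch reads ccact. This differs in its last base from CCACG, the other part of that element, for which only exact matches were counted. The capitals mark both copies of CCAAT.
DDIT3, chr12:57520518-57520714, minus strand: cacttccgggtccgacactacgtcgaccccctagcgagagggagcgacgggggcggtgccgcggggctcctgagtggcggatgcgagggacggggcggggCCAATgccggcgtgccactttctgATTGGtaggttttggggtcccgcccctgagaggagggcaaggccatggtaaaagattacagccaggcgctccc

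CCAAT was found for 7 of the 10 members (DDIT3, ATF3, CEBPB, CEBPG, CHAC1, SESN2 and DDIT4) and for 37.0% of all genes. An exact CCACG, the other part of that element, was found for 6 members, TRIB3, ATF4, ATF5, CEBPG, CHAC1 and DDIT4, and for 37.5% of all genes. The full cyclic AMP response element TGACGTCA was found for 0 members and for 2.03% of genes. For E-boxes, the class of site that TWIST-1 is known to bind, CATATG was found for ATF3 alone (3.22% of genes) and CATCTG likewise for ATF3 alone (14.6% of genes). The 6 motifs were searched on both strands, and CATATG and TGACGTCA are the same on both. A match is a description of the letters and not a measured binding site.

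DDIT3 encodes CHOP, a C/EBP family protein that pairs with other C/EBP factors and promotes cell death when stress persists. Its log2 value was 4.94 on the vector array and 5.69 on the TWIST-1 array, a log2 ratio of 0.75. It ranked 2 from the highest of the 22465 genes, and it was the only member past 1.5-fold, a threshold that 7 genes (0.0312%) passed in the higher direction. Among the 4177 genes whose mean level lay within 0.5 of that of DDIT3, 2 had a ratio at least as high, DDIT3 included. The median gene of that level had a ratio of 0.07. On the vector array DDIT3 lay below the median level of all genes (5.19), and its mean of 5.31 lay above it. The gene nearest to DDIT3 in its pair of values over the 2 arrays was PRL, at 5.12 and 5.65, with a distance of 0.18.

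TRIB3 encodes a pseudokinase that is induced by ATF4 and CHOP and, in turn, restrains them. The study also chose this gene for real-time PCR, which is not analysed here. It gave a log2 value of 7.29 for the vector and of 7.67 for TWIST-1, a log2 ratio of 0.38. Of the 2263 genes within 0.5 of its mean level, 6 had a ratio at least as high, TRIB3 included, where the median gene of that level had a ratio of -0.04. The nearest gene in the pair of values was the histone gene H2AC21, at 7.35 and 7.69, with a distance of 0.06.

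**Figure D1:**
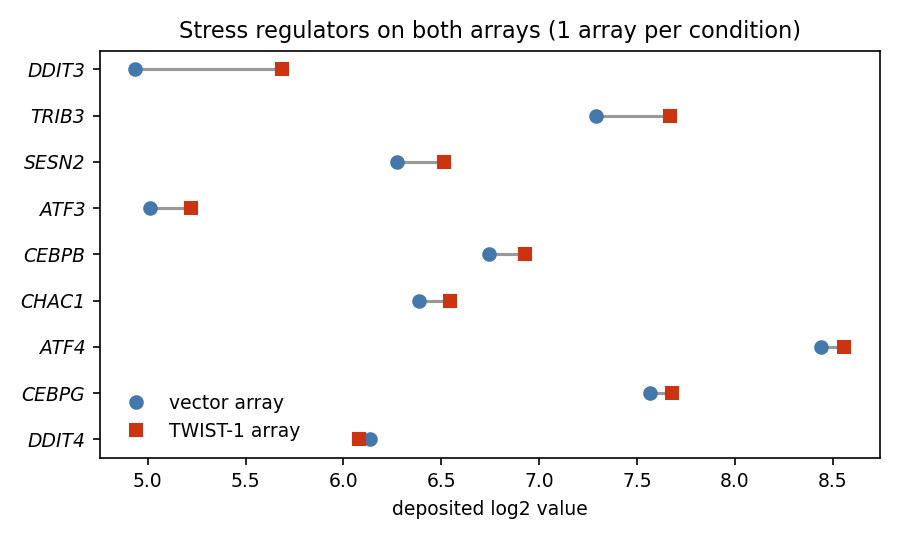
Deposited log2 values (x axis) of the 9 measured stress regulators in vector-transduced (circles) and TWIST-1-transduced (squares) U937 cells, 1 array per condition, ordered by log2 ratio. DDIT3 has the widest gap, from 4.94 to 5.69, and DDIT4 is the only gene whose TWIST-1 value is the lower of the pair.

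Among the other transcription factors, all 4 measured genes had ratios above 0 and short of 1.2-fold. ATF4, the central factor of the response, had log2 values of 8.44 and 8.56 and a log2 ratio of 0.12, or 1.09-fold. ATF3, a related factor that ATF4 induces and that represses many of its targets, had values of 5.01 and 5.22 with a ratio of 0.21. By the mean of both values, it was the only measured member below the median level of all genes. In that range of levels the median gene had a ratio of 0.07.

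CEBPB, a C/EBP factor of myeloid differentiation and inflammation, had log2 values of 6.74 on the vector array and 6.93 on the TWIST-1 array. Its log2 ratio was 0.19. CEBPG, which lacks an activation domain and pairs with ATF4, had values of 7.57 and 7.68 with a ratio of 0.11. Both genes were thus higher on the TWIST-1 array by less than the 1.2-fold threshold.

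The other 3 output genes had ratios on both sides of 0. SESN2, a leucine sensor that restrains the growth kinase complex mTORC1, had log2 values of 6.28 and 6.51, and its log2 ratio of 0.24 was the highest of the genes short of 1.2-fold. CHAC1, an enzyme that degrades glutathione, had values of 6.39 and 6.55 with a ratio of 0.16. DDIT4, also called REDD1, restrains mTORC1 through the TSC complex and answers to hypoxia and glucocorticoids as well as to ATF4. It measured 6.13 and 6.08, with a ratio of -0.05, which makes it the only measured member with a ratio below 0.

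In order of log2 ratio, the members were DDIT3, TRIB3, SESN2, ATF3, CEBPB, CHAC1, ATF4, CEBPG and DDIT4. DDIT3 stood 0.37 above TRIB3, TRIB3 stood 0.14 above SESN2, and CEBPG stood 0.17 above DDIT4. The neighbours from SESN2 to CEBPG were 0.01 to 0.04 apart. The only repeat in these data is between different rows of 1 gene on the same arrays, whose log2 ratios had a pooled SD of 0.07 over 479 genes. It covers probe differences and no biological or array replicate, and the gaps from SESN2 to CEBPG were smaller than it. No member had a second row of its own.

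Log2 ratios differed with the level of a gene. Genes below the median level had a median log2 ratio of 0.07 and the others of 0.0035. Within 0.5 of the mean level of each member, 2.14% of genes had a ratio at least as high as SESN2, 3.73% as CEBPB, 7.44% as ATF3, 8.54% as ATF4, 8.73% as CHAC1 and 9.11% as CEBPG. For TRIB3 this share was 0.265% and for DDIT3 0.0479%, and for DDIT4 it was 72.3%. These shares count the member itself and are ranks on 2 arrays, not tests.

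**Figure D2:**
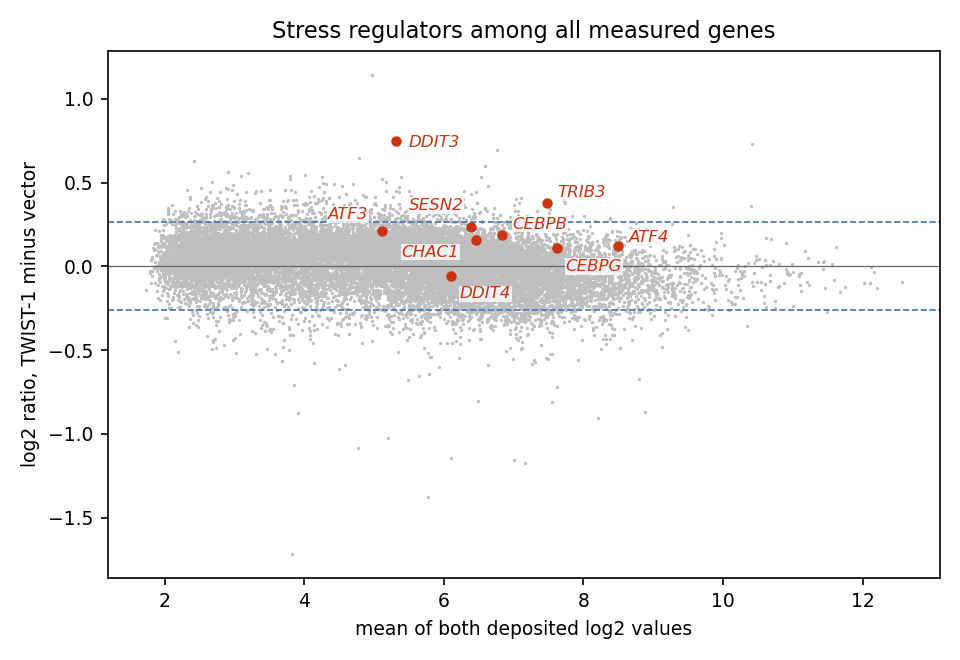
Log2 ratio, TWIST-1 minus vector (y axis), against the mean of both log2 values (x axis) for the 22465 genes (grey) and the 9 measured stress regulators (red), with dashed lines at 1.2-fold. DDIT3 (0.75) and TRIB3 (0.38) lie above the upper line, and 6 of the other 7 members lie between 0.11 and 0.24.

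Another scaling of the arrays left the members on the same side of 0 and of 1.2-fold. As deposited, centred on the median gene (which subtracts 0.04), loess-normalized or quantile-normalized again, DDIT3 ranged from 0.69 to 0.75 and TRIB3 from 0.33 to 0.42. ATF4 ranged from 0.08 to 0.19, CEBPG from 0.07 to 0.16 and ATF3 from 0.15 to 0.21. SESN2 stayed between 0.20 and 0.24, CEBPB between 0.15 and 0.21, CHAC1 between 0.12 and 0.16 and DDIT4 between -0.10 and -0.05. The counts over all genes moved more, from 609 higher and 641 lower as deposited to 329 and 1084 once centred, 331 and 821 by loess and 372 and 730 when quantile-normalized again.

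**Figure D3:**
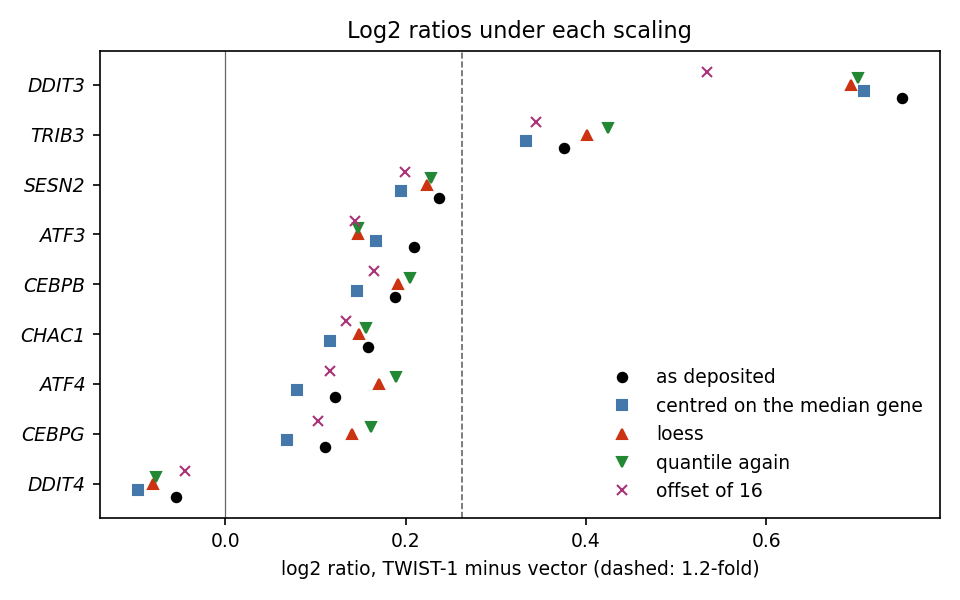
Log2 ratio, TWIST-1 minus vector (x axis), of the 9 measured stress regulators under the deposited values and 4 other scalings (symbols), with a dashed line at 1.2-fold. DDIT3 and TRIB3 lie past the line under all 5 shown, including 0.53 for DDIT3 with an offset of 16 added to the linear values, and the other members lie short of it.

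Related genes were described by lists, some of which share genes, and of all genes 60% had a ratio above 0. The first list held 21 genes, all measured, of the eIF2alpha kinases and their regulators, eIF2 and eIF2B subunits, the eIF2alpha phosphatase, the translation factor gene EIF2A and the mitochondrial stress relay. In it 4 were at least 1.2-fold lower (3 to 6 over the 4 scalings), beside 2.85% of all genes, and 0 were higher. Only 2 had ratios above 0, and 19 were below. All 21 lay at or above the median level, where the median ratio over all genes was 0.0035. A share of lower genes matched in level was not computed. Their median log2 ratio was -0.08, and -0.13 with centred ratios. EIF2AK2, the kinase that senses double-stranded RNA, had values of 8.15 and 7.79 and the lowest ratio, -0.36. EIF2B3, a subunit of the exchange factor eIF2B, had the highest, 0.12.

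Both regulatory subunits of the eIF2alpha phosphatase were lower, although PPP1R15A is itself a known target of ATF4 and CHOP. PPP1R15A (GADD34) measured 7.64 and 7.37, with a log2 ratio of -0.27 that was short of 1.2-fold after loess normalization (-0.24) and after another quantile normalization (-0.22). PPP1R15B measured 8.46 and 8.13, with a ratio of -0.33. DNAJC3, an inhibitor of the kinase PERK, measured 8.06 and 7.75, with a ratio of -0.32. These 3 genes were named after their values were seen.

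The kinase genes themselves had ratios below 0. EIF2AK3 (PERK), the sensor of misfolded protein, had values of 5.80 and 5.70, EIF2AK4 (GCN2), the sensor of amino acid shortage, 7.53 and 7.45, and EIF2AK1 (HRI), the sensor of heme shortage, 8.69 and 8.48. Their log2 ratios were -0.09, -0.08 and -0.21, all short of 1.2-fold, and these genes were also named after their values were seen. Kinase activity and the phosphorylation of eIF2alpha were not measured by the arrays.

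Known targets of ATF4 in amino acid supply came next. Of 22 measured genes of amino acid synthesis and transport (25 named), 4 were at least 1.2-fold higher, beside 2.71% of all genes, and 0 lower. In this list 18 had ratios above 0, beside 60% of all genes, and the median log2 ratio was 0.12. The serine synthesis gene PSAT1 had values of 9.11 and 9.46 and the highest ratio, 0.35, and ALDH18A1, an enzyme of proline synthesis, the lowest, -0.17. With centred ratios 2 genes of this list were higher. Among 13 aminoacyl-tRNA synthetase genes 0 were past 1.2-fold (2 higher after loess and after another quantile normalization), with a median of 0.11 and ratios from -0.12 for EPRS1 to 0.26 for MARS1, the synthetase gene for methionine. In RefSeq the end of MARS1 overlaps the end of DDIT3, and how the array assigns probes there was not analysed here.

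A list of secreted factors and further targets of ATF4, which shares SLC3A2 with the amino acid list, had 30 measured genes. In it 2 were at least 1.2-fold higher and 1 lower, beside 2.71% and 2.85% of all genes, with a median of 0.08. TUBE1, the epsilon-tubulin gene, had the highest ratio at 0.30 and KLHL24 the lowest at -0.31. Loess normalization gave 3 higher, another quantile normalization 4, and centring the ratios 0. TUBE1 and PCK2 (0.29, a mitochondrial enzyme of gluconeogenesis, named after its value was seen) were both short of 1.2-fold with centred ratios. These 3 lists of targets had medians above the 0.04 of all genes, and with centred ratios their medians were 0.08, 0.06 and 0.04.

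Of 15 measured genes linked to CHOP in stress-induced cell death, 0 were 1.2-fold higher and 1, PPP1R15A, was lower, and the median log2 ratio was -0.02. This list, called CHOP targets below, was not limited to genes that CHOP is known to induce. Its count and median therefore do not describe CHOP-induced genes alone. TNFRSF10A, a death receptor gene, had the highest ratio at 0.12. TNFRSF10B, the death receptor DR5, had values of 6.55 and 6.64, and BCL2L11, which encodes the pro-apoptotic protein BIM, 6.98 and 6.78. These last 2 genes were named after their values were seen.

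The unfolded protein response also acts through the factors ATF6 and XBP1. Of 25 measured chaperone and degradation genes of the endoplasmic reticulum, 0 were past 1.2-fold (3 lower with centred ratios), 18 had ratios below 0, and the median was -0.06. EDEM2 had the highest ratio at 0.16 and DERL1 the lowest at -0.26, and both act in the disposal of misfolded proteins. A list of 8 genes, called unfolded protein sensors below, also held XBP1 and proteases that cleave ATF6, which are not sensors themselves. In it ATF6 was 1.2-fold lower, with values of 5.91 and 5.60 and a ratio of -0.31, and ERN2 had the highest ratio at 0.17.

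Relatives of the members were compared next. Of 7 paralogs of TRIB3, SESN2, CHAC1 and DDIT4, 0 were past 1.2-fold as deposited, and the median was -0.06. TRIB1 had values of 5.05 and 4.80 and the lowest ratio, -0.25, which passed 1.2-fold under each of the other 3 scalings, and TRIB2 had 5.18 and 5.25 and the highest, 0.07. Of 26 other genes of the ATF, CREB and C/EBP families, 0 were higher and 3 lower (5 with centred ratios), with a median of 0.04. CREB3L2 had the lowest ratio at -0.36 and CREB3L1 the highest at 0.18. CEBPA, a C/EBP factor that drives myeloid differentiation, had values of 8.77 and 8.79 and CEBPD 5.89 and 5.99, and both were named after their values were seen.

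Other inputs to DDIT4 were described by lists of their targets. Of 23 hypoxia targets, 0 were higher and 1, KDM3A (-0.28), was lower, with a median of 0.02 (-0.02 with centred ratios) and the highest ratio, 0.23, for ADM. Of 14 glucocorticoid targets 3 were lower, beside 2.85% of all genes, and 0 higher, with a median of -0.05. The phosphatase gene DUSP1, also an immediate early gene, had the lowest ratio at -0.49, and ZBTB16 the highest at 0.23. Of 21 targets of p53, which is known to induce SESN2 and DDIT4, 0 were past 1.2-fold, from -0.24 for CCNG1 to 0.17 for PHLDA3, with a median of 0.

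**Figure D4:**
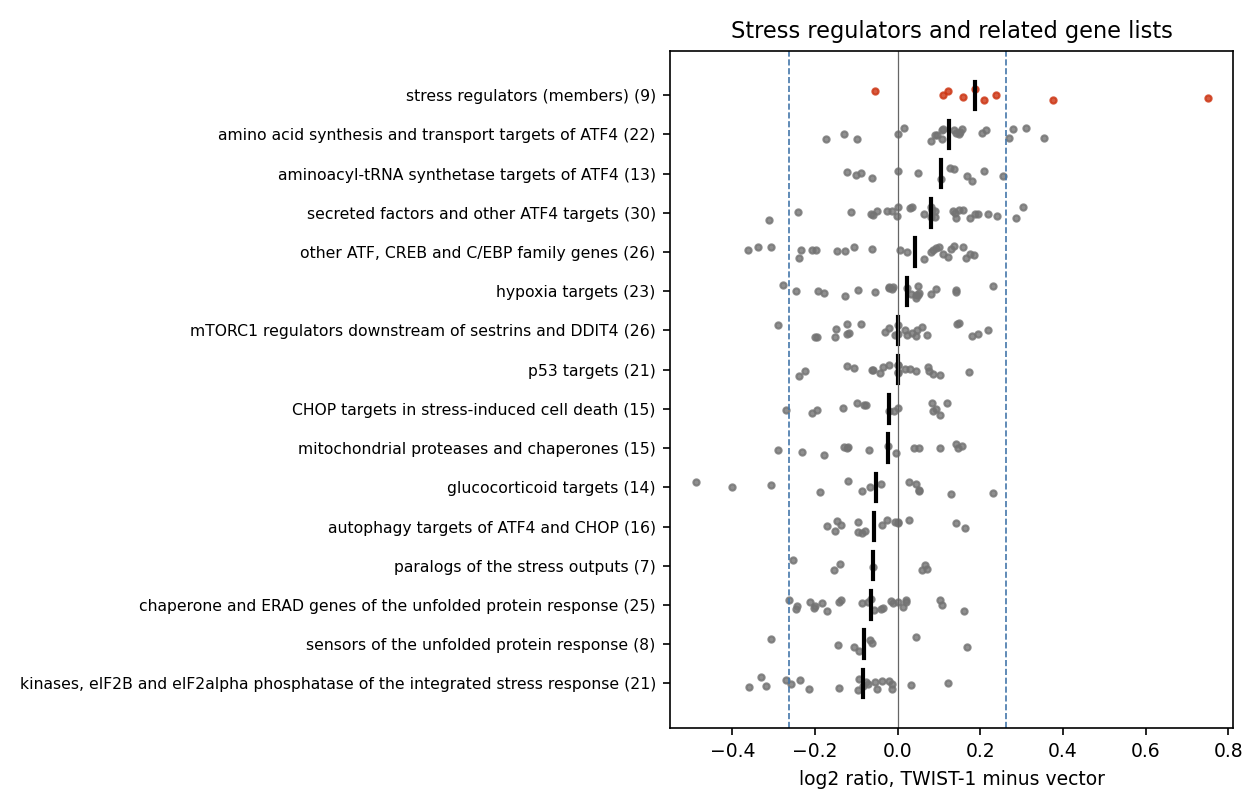
Log2 ratio, TWIST-1 minus vector (x axis), of each measured gene (points) of the stress regulators and 15 related lists (rows, with the number measured), with black bars at list medians and dashed lines at 1.2-fold. The stress regulators have the highest median (0.19), but that set was chosen after the ratios of DDIT3 and TRIB3 were seen. Next come 3 lists of ATF4 targets (0.12, 0.11 and 0.08). The lists of integrated stress response kinases and of unfolded protein sensors lie lowest as deposited (both -0.08).

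For mTORC1, which SESN2 and DDIT4 restrain, 26 components and regulators had a median log2 ratio of 0. RRAGB, a small GTPase of amino acid sensing, was lower at -0.29, and 0 genes were higher. EIF4EBP1, an inhibitor of translation that is also an ATF4 target, had the highest ratio, with values of 7.89 and 8.11 with a ratio of 0.22.

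The row of TWIST1 gave 4.13 for the vector and 4.34 for TWIST-1, a log2 ratio of 0.21, short of 1.2-fold. Whether its probes match the introduced cDNA was not analysed here. Of 18 measured myeloid markers, 3 were 1.2-fold lower, beside 2.85% of all genes, and 0 higher, with a median of -0.08. That median depended on the scaling. It was -0.13 once centred, but -0.0066 by loess and -0.0027 when the arrays were quantile-normalized again. Vector values ran from 5.09 to 11.6 and TWIST-1 values from 5.20 to 11.4. At or above the median level lay 17 of the 18, and a share of lower genes matched in level was not computed. Markers of erythroid cells, which also mark K562, another cell line of the study, had 7 of 14 genes measured. All 7 had ratios above 0, beside 60% of all genes, and KLF1 was 1.2-fold higher at 0.35. Of these markers 3 lay at or above the median level, and genes below that level had a median log2 ratio of 0.07. Their median was 0.16, with values from 3.50 to 6.55 on the vector array and from 3.64 to 6.90 on the TWIST-1 array. T and B lymphoid markers had medians of -0.04 over 7 genes and 0.06 over 5 genes, and 0 were past 1.2-fold. The part of these marker shifts in the ratios of the stress regulators was not tested.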

How the data were processed

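Total RNA of both U937 populations was hybridized, 1 array for each. The values the authors deposited are on the log2 scale, described by them as quantile-normalized, with a single value per row. The median over the deposited rows still differed, 3.90 on the vector array and 3.97 on the TWIST-1 array. Affymetrix Expression Console is credited in the submitters' processing notes. How probes were summarised and background was corrected were not given in the sources used here. Values were used as deposited, without a filter. Some genes had the same deposited value on both arrays, a log2 ratio of 0, and the list medians of 0 fall on such genes.

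Genes were named from the 23781 of 70523 rows with 1 symbol in the probe annotation, updated through RefSeq gene identifiers (21497 rows). Rows with several symbols (1543) and unlisted rows (45199) were not used. The brightest row stood for a gene. No test was run and no p-value computed, and precision is limited by having 1 array for each population.

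The members and gene lists were chosen with earlier results of these data known. Genes named are the members, TWIST1, the highest and lowest gene of each list and the gene nearest to each member past 1.2-fold, unless stated. Alternatives were centred ratios, loess (span 0.7, 3 iterations), another quantile normalization, the mean of a gene's rows, an offset of 16, restriction to genes not below the median level, and a threshold of 1.5-fold. Counting and normalization were tested on simulated data. R 4.3.3, limma 3.58.1, Python 3.11.15, numpy 2.4.6, pandas 2.3.3 and matplotlib 3.10.9 were used, and sequences came from RefSeq tables of GRCh38.p14.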

Additional observations from a re-analysis of the deposited data

How the results depend on the processing

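No paired analysis was possible because each condition had 1 array. The mean of a gene's rows could only leave each measured member as deposited, since none had a second row of its own. Under centred ratios, loess normalization, another quantile normalization and an offset of 16, every member ratio kept its sign and its side of 1.2-fold. With that offset, which shrinks ratios by construction, DDIT3 was 0.53 in place of 0.75. The number of members higher was 2 under each of these and 1 at 1.5-fold. It was also 2 with genes below the median level (5.19) left out, and the number lower was 0 throughout. That filter uses the mean of both arrays, and DDIT3 passed it through the TWIST-1 array (5.69), its vector value being 4.94. The filter is thus no check on DDIT3. The median of the members ranged from 0.14 to 0.19, and was 0.17 without DDIT3, an alternative chosen after seeing the data. Among the lists, counts that moved by over 1.5 times beside those given with the lists were the CHOP targets (1 lower, 0 after loess and another quantile normalization), p53 targets (0 lower, 2 with centred ratios and 1 after loess or another quantile normalization), hypoxia targets and mitochondrial proteases and chaperones (each 1 lower, 2 with centred ratios), mTORC1 genes (0 higher, 1 after another quantile normalization) and, with the offset, the other ATF, CREB and C/EBP genes (3 lower, 1 with the offset) and glucocorticoid targets (3 lower, 1 with the offset). With the offset, the 1 lower gene became 0 in each of the CHOP targets, unfolded protein sensors, mTORC1 genes, hypoxia targets and mitochondrial genes. The further ATF4 targets had 2 lower with centred ratios in place of 1, and 0 higher with the offset in place of 2. Myeloid markers had 1 lower after loess or another quantile normalization in place of 3. The cause was not tested.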

Other observations

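Of the 2 remaining lists, 16 autophagy genes that ATF4 and CHOP are known to induce had 0 genes past 1.2-fold, 11 with ratios below 0 and a median log2 ratio of -0.06. ULK1, the kinase that starts autophagy, had the highest ratio, with values of 6.50 and 6.66, and ATG3, a conjugating enzyme of autophagosome formation, the lowest, with 7.52 and 7.35. Of 15 mitochondrial proteases and chaperones, a group linked to ATF5 in mammals, 0 were higher and 1, TIMM17A (-0.29), a subunit of the mitochondrial import channel, was lower. Their median was -0.02, and the protease gene LONP1 had the highest ratio at 0.16.

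Over all 15 lists, with members left out and each gene counted once, 271 genes were measured. Of these, 2.21% were at least 1.2-fold higher, beside 2.71% of all genes, and 5.17% at least 1.2-fold lower, beside 2.85%. Their median was -0.0041, beside 0.04. The low end of the ratios differed with level. The 5th percentile was -0.22 over all genes, -0.20 within 0.5 of the mean level of DDIT3, -0.28 for TRIB3 and -0.30 for ATF4. Shares among genes matched to the lists in level were not computed, so the share of lower genes is not read as an excess.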
